A study of Mus musculus with 8 samples.

Results

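The subject is the set of nuclear genes that encode subunits of the mitochondrial respiratory chain and of ATP synthase, in mouse mammary tumours given an immune checkpoint inhibitor with or without radiation. Members were taken by symbol: Nduf genes of the series A, B, C, S and V with a number, Sdha to Sdhd, all Uqcr genes, Cox genes of the series 4 to 8, and all Atp5 genes. Of 32098 gene rows 101 had such a symbol, 11 of them carried the pseudogene tag -ps and were left out, and 90 remained as members. By complex these were 42 genes of complex I (NADH dehydrogenase), 4 of complex II (succinate dehydrogenase), 8 of complex III (cytochrome bc1), 19 of complex IV (cytochrome c oxidase) and 17 of complex V (ATP synthase). The tumours had been grown from 4T1, a mouse mammary carcinoma cell line, and the labels give the genotype as wild type and the tissue as tumour. In 4 tumours radiation was combined with an immune checkpoint inhibitor (RI, replicates 1, 2, 4 and 5). In the other 4 the inhibitor was given alone (ICI, replicates 1, 2, 3 and 4), so every tumour had received the inhibitor and there was no untreated group. The labels name neither the inhibitor nor a dose, nor do they place an RI tumour inside or outside the irradiated field. The design text speaks of 3 replicates per group, and 4 were listed. No label ties a tumour to an animal, and the p-values therefore reflect variation among these 8 samples, part of which may be technical.

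The respiratory chain passes electrons from NADH and succinate to oxygen in the inner mitochondrial membrane, and ATP synthase uses the resulting proton gradient to make ATP. Complexes I, III, IV and V are mosaics of subunits encoded in the mitochondrial genome and in the nucleus, whereas complex II is encoded by nuclear genes alone. Large core subunits carry the cofactors and the catalytic sites, and many small accessory subunits are needed for assembly and stability. In vertebrates, promoters of many of these genes carry sites for the factors NRF1, GABPA (also called NRF2) and YY1.

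RNA was sequenced from whole tumours, and the deposited unit was FPKM, which scales fragments by gene length and library size. Total depth, worked out from the spacing of low FPKM values, was 27007000 to 42605600 fragments in RI tumours and 32955800 to 42519200 in ICI tumours. Genes of the mitochondrial genome took 2.72% to 3.24% of the fragments in RI tumours and 4.41% to 8.21% in ICI tumours. Libraries RI 4 and ICI 1 stood apart from their groups. In RI 4 3 genes resembling ribosomal RNA made up 60.7% of the summed FPKM (1.02% to 1.54% in the other RI tumours), and in ICI 1 the summed FPKM of 13 neutrophil markers was 22730 against 301 to 722 in the other ICI tumours. The 8 endothelial markers also summed to 203 FPKM in ICI 1, against 21.8 to 42.6 FPKM in the other ICI tumours. Counts and medians of the main groups of subunits are therefore also given without RI 4 and ICI 1. In bulk tumour RNA, fewer cells of a type and less RNA per cell cannot be told apart.

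On balance, mRNAs of the nuclear-encoded subunits were lower in RI than in ICI tumours, chiefly those of small accessory subunits, while that of Sdha, a catalytic subunit, was higher. Of the 90 members 84 reached 1 FPKM in at least 4 tumours and were tested among 13439 genes with limma on log2(FPKM + 1), the calls being made at a Benjamini-Hochberg adjusted p under 0.05. Of these 84 members 27 fell in RI, where 6.6% of all genes tested did, and 1 rose, Sdha, where 11.1% of all genes tested did. The median log2 difference (RI minus ICI) was −0.45 over the tested members and 0.01 over all genes tested. Differences were negative for 65 members and positive for 19, and in 36 members every RI tumour lay below every ICI tumour (11.2% of all genes tested), with the reverse in 5 (16.7% of all genes tested). The mean log2(FPKM + 1) of the tested members was 4.98, 5.01, 4.42 and 4.80 in RI 1, 2, 4 and 5, against 5.00, 5.22, 5.27 and 5.29 in ICI 1, 2, 3 and 4. RI 4 was the lowest tumour, and the groups overlapped, since ICI 1 lay below RI 2. Without RI 4 and ICI 1, 39 members were called, 35 lower and 4 higher (Sdha, Sdhd, Atp5a1 and Atp5b), with 23.1% of all genes called, and the members' median was −0.39. Of the 28 calls 27 were kept in that setting, the exception being Ndufb10 (adjusted p = 0.0516). With the trend of differences with transcript length removed from each library, a setting chosen after seeing the data, 4 members were called (5.55% of all genes), of which Ndufv3 and Sdha were among the 28. With trends of exon length and GC content removed (the length and GC correction), 17 members were called (9.66% of all genes), 16 of them among the 28. Of the 28 calls, Ndufv3 and Atp5j were kept whichever single library was left out. Leaving out ICI 4 left 2 members called (2.5% of all genes), leaving out RI 2 left 10 (5% of all genes), leaving out RI 5 left 10 (7.57%) and leaving out ICI 2 left 18 (12.2%). With TPM in place of FPKM limma called 0 members, with 12 at an unadjusted p under 0.05, and 2.08% of all genes.

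**Figure D1:**
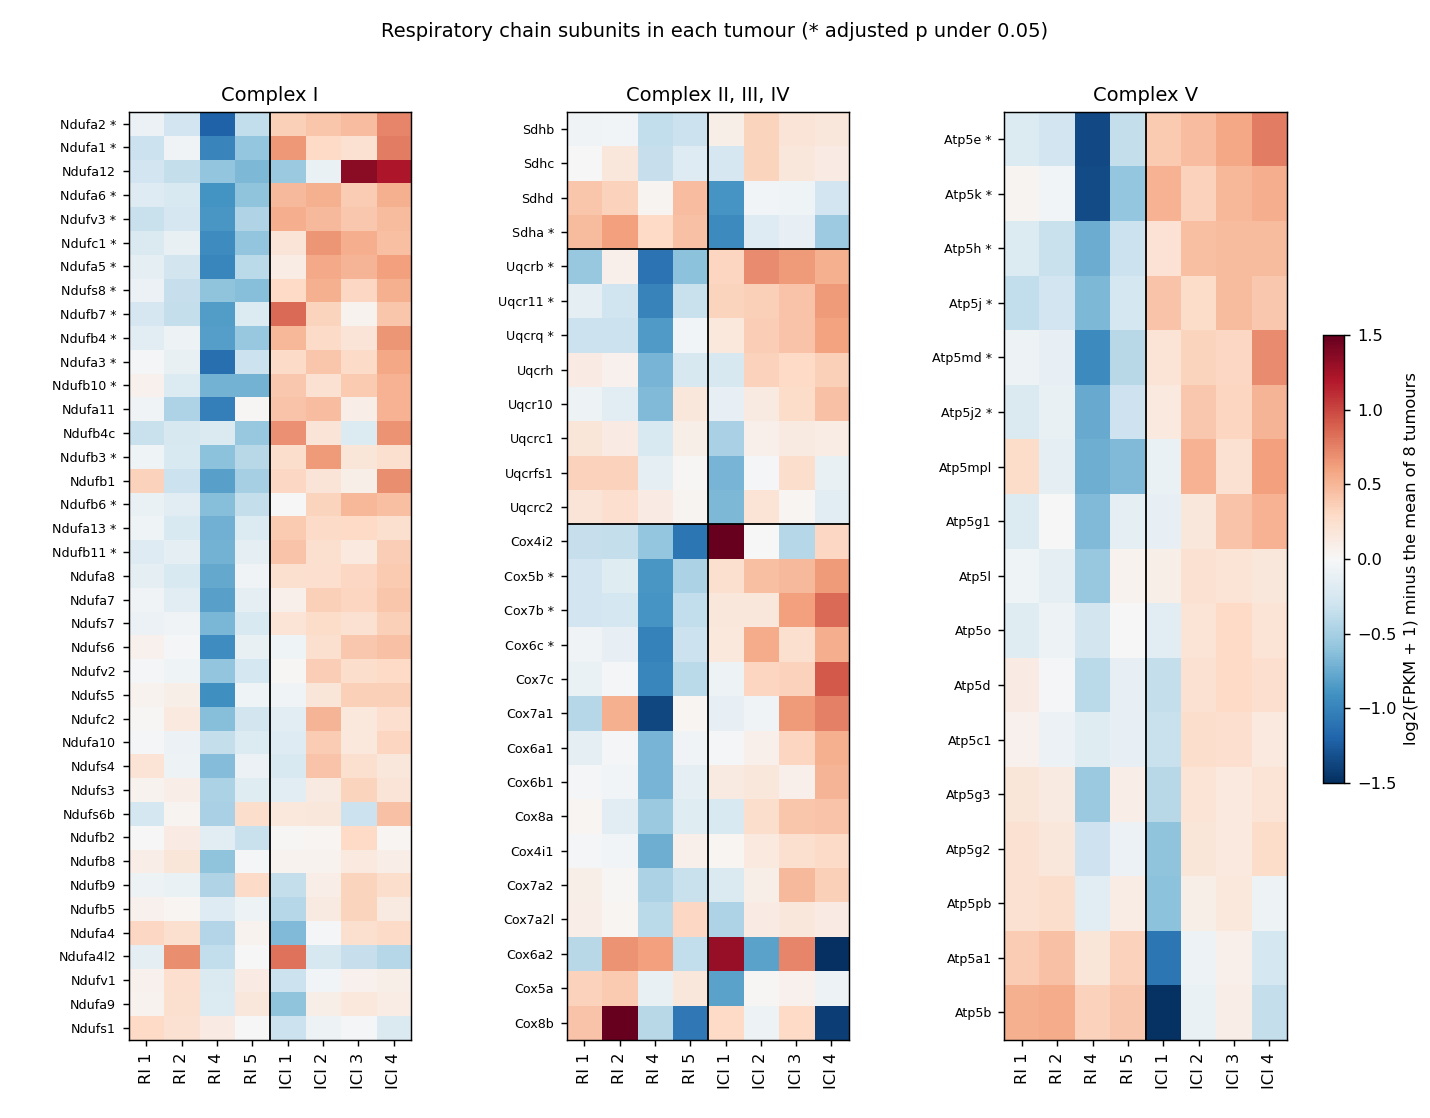
Level of 83 of the 84 tested members in the 4 RI and 4 ICI tumours, as log2(FPKM + 1) minus the member's mean over the 8 tumours (colour scale, blue low and red high), with members ordered by their difference within complexes I to V and asterisks for adjusted p under 0.05. Most members are blue in RI, most deeply in RI 4, and red in ICI, whereas Sdha, Sdhd, Atp5a1 and Atp5b run the other way and are lowest in ICI 1.

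By complex, the direction was not uniform. The counts are to be read against the 6.6% of all genes tested that fell and the 11.1% that rose. Among genes with transcripts under 1000 bases 17.4% fell and 2.51% rose. In complex I 15 of 40 tested members fell and none rose, with a median log2 difference of −0.59. Complex II had 1 member that rose among 4, none that fell and a median of 0.23. In complex III 3 of 8 fell and none rose (median −0.37), in complex IV 3 of 15 fell and none rose (median −0.44), and in complex V 6 of 17 fell and none rose (median −0.35). Single tumours moved these medians: without RI 4 they were −0.20 for complex III, −0.29 for complex IV and −0.23 for complex V, and without ICI 1 that of complex II was 0.0748. With RI 4 and ICI 1 both left out, 20 members of complex I fell (median −0.43), 2 of complex II rose (median 0.16), 3 of complex III fell (median −0.33), 5 of complex IV fell (median −0.39), and 7 of complex V fell and 2 rose (median −0.32). Of all genes tested 7.88% fell and 15.2% rose in that setting. With the transcript length trend removed, medians were −0.28, 0.34, 0.0496, −0.0542 and −0.047 from complex I to complex V, and the only call of a member lower in RI was that of Ndufv3 in complex I. With the length and GC correction the medians were −0.33, 0.27, −0.0985, −0.13 and −0.44 in the same order. In that setting 6, 0, 2, 2 and 5 members fell and 2 of complex II rose, while 4.12% of all genes fell and 5.54% rose. Summed over its subunits, complex I had 1151, 1115, 735 and 1021 FPKM in RI 1, 2, 4 and 5, against 1259, 1439, 1432 and 1534 FPKM in ICI 1, 2, 3 and 4. All 4 RI sums lay below all 4 ICI sums. For complex V the summed FPKM was 1238, 1212, 946 and 1116 FPKM in RI 1, 2, 4 and 5, against 763, 1191, 1249 and 1164 FPKM in ICI 1, 2, 3 and 4, and the groups overlapped. Complex II had 227, 232, 182 and 218 FPKM in RI 1, 2, 4 and 5, against 131, 201, 192 and 171 FPKM in ICI 1, 2, 3 and 4, with RI 4 below ICI 2 and ICI 3 and the other RI tumours above all ICI tumours.

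**Figure D2:**
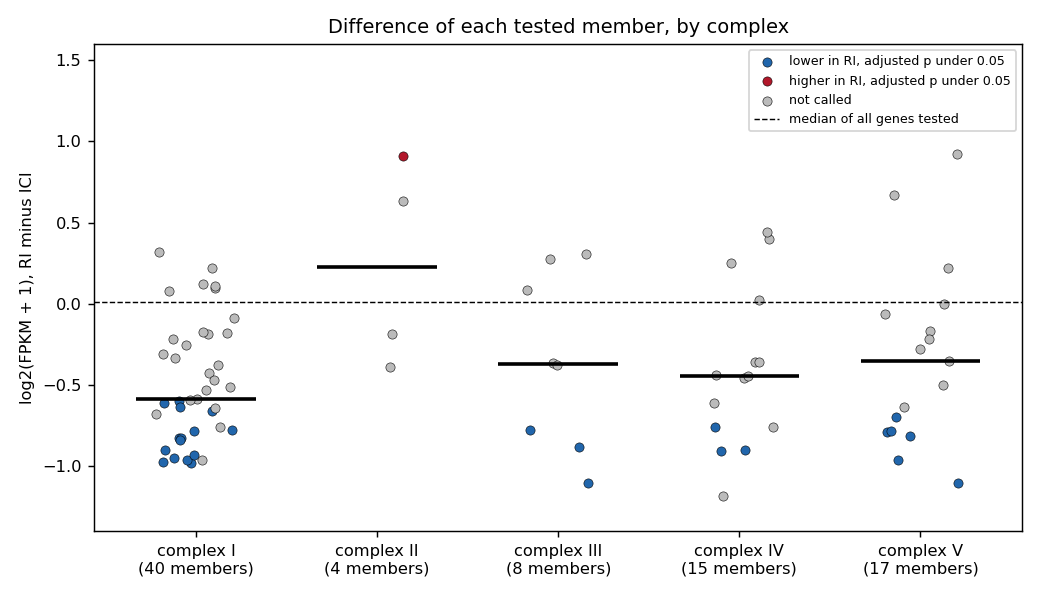
Log2 difference (RI minus ICI) of each tested member, in columns by complex, with blue points for members lower in RI and a red point for the member higher in RI at an adjusted p under 0.05, grey points for members not called, bars for the median of a complex and a dashed line for the median of all genes tested. Medians lie at −0.59, 0.23, −0.37, −0.44 and −0.35 from complex I to complex V, and only complex II lies above the dashed line at 0.01.

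Promoters were read for the members matched by gene in the RefSeq promoter set (GRCm38.p6, 250 bases before to 50 after the start), 69 of 90. They were searched on both strands for the letters GCGCANGCG (NRF1), CCGGAAG (GABPA and other ETS factors) and AAGATGGCG (YY1), none of which contains another. The NRF1 letters were in 19 of 69 member windows (27.5%) and in 6.47% of 27025 windows of all genes, the GABPA letters in 16 (23.2%) and 9.12%, and the YY1 letters in 6 (8.70%) and 1.49%. Tested members with NRF1 letters had a median log2 difference of −0.51 and those without of −0.46. With GABPA letters the median was −0.55 and without −0.47, and with YY1 letters it was −0.52 and without −0.46. A match is a stretch of letters and not a shown binding site. The 250 bases before the start are printed for Sdha, the called member that rose, for Sdhd of the same complex, and for 3 called members that fell, Ndufb4, Atp5h and Atp5e, because members of opposite direction carry the same letters. Capitals mark matches to the NRF1 or GABPA letters on either strand, and all windows lie on the minus strand and read 5′ to 3′ toward the start of the gene.
Sdha, chr13:74350241-74350490: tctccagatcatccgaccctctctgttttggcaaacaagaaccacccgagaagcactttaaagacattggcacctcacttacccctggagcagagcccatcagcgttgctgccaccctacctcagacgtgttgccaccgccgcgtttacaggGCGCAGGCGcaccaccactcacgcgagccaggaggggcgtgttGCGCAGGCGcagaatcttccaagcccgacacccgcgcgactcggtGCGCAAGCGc
Sdhd, chr9:50603850-50604099: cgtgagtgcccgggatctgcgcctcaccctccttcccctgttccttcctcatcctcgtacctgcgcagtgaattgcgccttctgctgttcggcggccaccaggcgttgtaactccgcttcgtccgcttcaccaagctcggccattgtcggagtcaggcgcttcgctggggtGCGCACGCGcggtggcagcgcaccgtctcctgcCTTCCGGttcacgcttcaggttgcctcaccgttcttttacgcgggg
Ndufb4, chr16:37654369-37654618: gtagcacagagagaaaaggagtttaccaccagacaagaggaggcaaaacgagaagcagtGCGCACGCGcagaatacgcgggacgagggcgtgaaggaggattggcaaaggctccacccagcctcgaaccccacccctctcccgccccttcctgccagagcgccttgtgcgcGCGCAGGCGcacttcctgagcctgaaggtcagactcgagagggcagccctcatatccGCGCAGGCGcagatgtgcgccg
Atp5h, chr11:115419920-115420169: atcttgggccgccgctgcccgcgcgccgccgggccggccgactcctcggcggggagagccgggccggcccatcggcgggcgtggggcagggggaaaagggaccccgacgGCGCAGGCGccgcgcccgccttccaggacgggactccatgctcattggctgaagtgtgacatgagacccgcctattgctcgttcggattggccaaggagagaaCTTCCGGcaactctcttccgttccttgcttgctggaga
Atp5e, chr2:174464102-174464351: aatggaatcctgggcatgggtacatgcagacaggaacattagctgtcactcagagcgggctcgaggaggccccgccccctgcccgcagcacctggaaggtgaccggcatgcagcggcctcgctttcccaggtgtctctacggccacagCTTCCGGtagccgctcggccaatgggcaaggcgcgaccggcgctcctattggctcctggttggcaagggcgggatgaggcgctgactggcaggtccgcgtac
The Sdha and Ndufb4 windows hold 3 NRF1 matches each, those of Sdhd and Atp5h 1 NRF1 and 1 GABPA match each, and that of Atp5e 1 GABPA match.

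Complex I takes electrons from NADH, and its 7 nuclear-encoded core subunits were mostly not called. Only Ndufs8, which carries iron-sulfur clusters near the quinone site, fell among the 7, and the median log2 difference of the core was −0.25. Without RI 4 and ICI 1, 3 of the 7 fell (median −0.23), and with the transcript length trend removed the call of Ndufs8 was lost (adjusted p = 0.0556) and the median was 0.0146. Ndufs8 had 29.7, 24.7, 20.6 and 19.95 FPKM in RI 1, 2, 4 and 5, against 39.2, 46.2, 39.6 and 46.2 FPKM in ICI 1, 2, 3 and 4, and the groups did not overlap (log2 difference −0.84, SE 0.16, adjusted p = 0.0153). Values are given in this order of tumours from here on. Without ICI 4 the adjusted p of Ndufs8 was 0.0535, and it passed without any other single library.
Ndufs1, the largest core subunit, which receives electrons in a chain of iron-sulfur clusters, had 11.5, 10.9, 10.1 and 9.2 FPKM in RI, against 7.14, 8.72, 9.09 and 7.77 FPKM in ICI. Every RI tumour lay above every ICI tumour, but the difference of 0.32 did not pass (adjusted p = 0.11). Ndufv1, the subunit that binds NADH and the flavin FMN, had 29.6, 33.6, 24.1 and 30.6 FPKM in RI, against 22.2, 27.2, 29.4 and 29.8 FPKM in ICI, and the groups overlapped (adjusted p = 0.635). Ndufs7, a subunit at the quinone pocket, averaged 36.9 ± 7.05 FPKM in RI and 52.8 ± 2.54 FPKM in ICI (SD, n = 4 each, as for all means below). There the groups did not overlap and RI was lower, with an adjusted p of 0.058. Ndufv2 averaged 36 ± 6.31 FPKM in RI and 49.8 ± 5.18 FPKM in ICI (adjusted p = 0.0797) and Ndufs3 27.8 ± 4.99 FPKM in RI and 33.2 ± 4.71 FPKM in ICI (adjusted p = 0.325).

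The accessory subunits of complex I held 14 of the 28 calls, all of them lower in RI, among 33 tested, with a median log2 difference of −0.61. Without RI 4 and ICI 1, 17 fell (median −0.48). With the transcript length trend removed 1 of the 14 calls was left, Ndufv3, and the median was −0.29, and with the length and GC correction 6 were left. Ndufv3, an accessory subunit of the NADH-oxidising module, had the smallest adjusted p of all members. It had 12.9, 13.7, 8.59 and 11.8 FPKM in RI, against 24.5, 23.5, 22.1 and 23.4 FPKM in ICI, and the groups were far apart relative to the narrow ICI range (log2 difference −0.95, SE 0.15, adjusted p = 0.0129). Ndufa6, an accessory subunit of the LYR-motif family in the peripheral arm, had 23.6, 23.2, 14.2 and 17.7 FPKM in RI, against 38.5, 39.7, 35.6 and 39.7 FPKM in ICI. The groups did not overlap (log2 difference −0.96, adjusted p = 0.015, and 0.0525 without ICI 4). Ndufa2, with a thioredoxin-like fold, had 62.2, 53.7, 27.8 and 50.7 FPKM in RI, against 84.8, 88.2, 90.9 and 110 FPKM in ICI. Its difference of −0.98 was the most negative of complex I (adjusted p = 0.0279), and RI 4 lay lowest. Ndufa1, a small subunit of the membrane arm encoded on the X chromosome, had 28.2, 34.4, 17.5 and 23.6 FPKM in RI, against 56.7, 44.1, 41.7 and 61.1 FPKM in ICI (log2 difference −0.97, adjusted p = 0.0229). Ndufc1, another membrane-arm subunit, had 13.3, 14.3, 7.61 and 10.03 FPKM in RI, against 18, 25.2, 23.2 and 21.7 FPKM in ICI (log2 difference −0.93, adjusted p = 0.02). In these 3 genes no RI tumour reached the lowest ICI tumour. Leaving out ICI 4 took the adjusted p to 0.085 for Ndufa2, 0.0733 for Ndufa1 and 0.0589 for Ndufc1, leaving out RI 5 to 0.058, 0.057 and 0.0517, and leaving out RI 2 to 0.0589 for Ndufa2.

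Other accessory subunits of complex I that fell were Ndufa3, Ndufa5, Ndufa13 (a subunit also studied in cell death), Ndufb3, Ndufb4, Ndufb6, Ndufb7, Ndufb10 and Ndufb11, with log2 differences between −0.90 for Ndufa5 and −0.60 for Ndufb11. Without ICI 4 all 9 lost their calls (adjusted p between 0.0738 for Ndufa5 and 0.123 for Ndufa3), and Ndufa3, Ndufb6 and Ndufb11 kept them with 1 of the 8 libraries left out in turn. Ndufa8, a subunit of the intermembrane space side and the most abundant member of complex I per length, had 67.1, 62.6, 43.1 and 71.4 FPKM in RI, against 87.1, 87.8, 91.5 and 96.8 FPKM in ICI, and just missed the threshold (adjusted p = 0.0522). Not every accessory subunit was low in RI. Ndufa9, which lies near the quinone site, averaged 23.7 ± 3.16 FPKM in RI and 22 ± 5.02 FPKM in ICI, and Ndufb9 averaged 55.1 ± 11.7 FPKM in RI and 62.2 ± 12.4 FPKM in ICI. Neither passed, with adjusted p-values of 0.677 and 0.586. Ndufa4, named for complex I but known as a subunit of complex IV, averaged 56.5 ± 12.3 FPKM in RI and 54.2 ± 14.8 FPKM in ICI (adjusted p = 0.848). Ndufa12 had 8.52, 8.05, 6.71 and 6.25 FPKM in RI, against 6.93, 9.88, 28.6 and 25.9 FPKM in ICI, so ICI 3 and ICI 4 were high, ICI 2 lay a little above the highest RI tumour and ICI 1 was in the RI range. A copy named Ndufa12-ps averaged 60.3 FPKM in RI and 78.0 FPKM in ICI, so the reads of Ndufa12 may be split between near-identical sequences and its values are uncertain. Of the members, Ndufb4c and Ndufs6b are listed as processed pseudogenes and Ndufb1 as a noncoding gene in GENCODE M21, and they are counted among the accessory subunits tested. Ndufb4c averaged 9.80 FPKM in RI and 16.7 FPKM in ICI, and Ndufb4 8.20 FPKM in RI and 15.0 FPKM in ICI. Reads may be shared between Ndufb4 and Ndufb4c.

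Complex II oxidises succinate and links the citric acid cycle to the chain, and the differences of its 4 subunits did not share a sign. Sdha, the flavoprotein that holds the catalytic site, had 49.7, 54.8, 44 and 48.6 FPKM in RI, against 17.8, 30.8, 32.5 and 24.1 FPKM in ICI. Every RI tumour lay above every ICI tumour, by a log2 difference of 0.91 (SE 0.20, adjusted p = 0.02). Sdhd, a haem-binding membrane anchor and the most abundant complex II mRNA per length, had 103, 98.6, 79.4 and 107 FPKM in RI, against 41.5, 74.9, 73.8 and 63.1 FPKM in ICI. The groups did not overlap there either, yet the difference of 0.64 did not pass (adjusted p = 0.0676). Sdhb, the iron-sulfur subunit, had 39.5, 39.95, 31.6 and 32.6 FPKM in RI, against 43.5, 51.8, 47.1 and 46.3 FPKM in ICI, with RI below ICI throughout and no call (log2 difference −0.39, adjusted p = 0.0848). Sdhc, the other membrane anchor, had 34.2, 38.6, 26.6 and 29.9 FPKM in RI, against 28.5, 43.2, 38.4 and 37.3 FPKM in ICI, and the groups overlapped (adjusted p = 0.482). Without RI 4 and ICI 1 the difference was 0.80 for Sdha (adjusted p = 0.0123) and 0.54 for Sdhd (adjusted p = 0.0173). The call of Sdha was lost without ICI 4 (adjusted p = 0.0644) and without RI 2 (adjusted p = 0.0584).

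Complex III passes electrons from ubiquinol to cytochrome c, and the calls were among its small subunits. The core proteins Uqcrc1 and Uqcrc2 and the Rieske iron-sulfur protein Uqcrfs1 had log2 differences of 0.09, 0.31 and 0.28, none of which passed (adjusted p = 0.769, 0.285 and 0.398). All 5 small subunits had negative differences, with a median of −0.78, and 3 of them fell, as they did without RI 4 and ICI 1 (median −0.70). With the transcript length trend removed none of the 3 calls was left, the median was −0.45, and Uqcr10 and Uqcrh had differences of 0.0691 and 0.0301. Uqcrb, a subunit close to the ubiquinone site, had 32.2, 50.9, 21.7 and 31.1 FPKM in RI, against 60.2, 79.3, 75.6 and 69.99 FPKM in ICI. The highest RI tumour, RI 2, lay below the lowest ICI tumour (log2 difference −1.10, SE 0.24, adjusted p = 0.0199). Uqcr11, the smallest subunit by coding length of the 5, had 52.7, 47, 28.3 and 45.6 FPKM in RI, against 73.3, 74.3, 78.4 and 90.7 FPKM in ICI (log2 difference −0.88, adjusted p = 0.0234). Uqcrq, a small subunit next to cytochrome b, had 27.5, 27.4, 18.7 and 33.6 FPKM in RI, against 38.8, 44.9, 46.9 and 53.3 FPKM in ICI (log2 difference −0.78, adjusted p = 0.0275). In both genes the groups did not overlap. Uqcr10 averaged 69.8 ± 16 FPKM in RI and 89 ± 14.6 FPKM in ICI and was not called (adjusted p = 0.245), and Uqcrh, the acidic hinge protein, averaged 49.2 ± 12 FPKM in RI and 63.6 ± 11.6 FPKM in ICI (adjusted p = 0.253). Uqcrfs1 itself had 78.5, 78.7, 56 and 62.3 FPKM in RI, against 37.5, 61.2, 74.3 and 57.3 FPKM in ICI, overlapping groups with ICI 1 lowest. Without ICI 4 the adjusted p was 0.0589 for Uqcrb, 0.0753 for Uqcr11 and 0.085 for Uqcrq. Calls were also lost without RI 5 for Uqcrb (0.0506) and Uqcr11 (0.0513), without RI 2 for Uqcr11 (0.0562) and Uqcrq (0.068), and without ICI 2 (0.0523) or RI 1 (0.0607) for Uqcrq.

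Complex IV reduces oxygen to water, and the nuclear subunits surround a catalytic core that the mitochondrial genome encodes. Among the 10 generally expressed nuclear subunits 3 fell (Cox5b, Cox6c and Cox7b), and the median log2 difference was −0.45. Without RI 4 and ICI 1, 5 fell (median −0.43), and with the transcript length trend removed the 3 calls were lost and the median was −0.0542. Cox5b, a zinc-binding subunit on the matrix side, had 64.8, 69.7, 42.7 and 56.6 FPKM in RI, against 93.3, 108, 111 and 124 FPKM in ICI. The groups lay well apart (log2 difference −0.91, SE 0.19, adjusted p = 0.0178, and 0.0608 without ICI 4). Cox5b-ps, a copy outside the member set, averaged 16.8 FPKM in RI and 35.3 FPKM in ICI, and reads may be shared between the copies. Cox7b, a single-helix membrane subunit, had 60.5, 61.4, 39.4 and 57.1 FPKM in RI, against 82.9, 83.1, 113 and 133 FPKM in ICI (log2 difference −0.90, adjusted p = 0.0265). Cox6c, also a small membrane subunit, had 33.8, 32.2, 16.9 and 27.8 FPKM in RI, against 39.4, 52.1, 41.8 and 51.8 FPKM in ICI (log2 difference −0.75, adjusted p = 0.0466). Groups did not overlap in either gene, but Cox7b kept its call with 3 of the 8 libraries left out and Cox6c with 1. Cox5a, the partner of Cox5b on the matrix side, had 34.5, 35.7, 25 and 30.6 FPKM in RI, against 15, 27.4, 28.4 and 25.6 FPKM in ICI. Its difference of 0.40 had the opposite sign and did not pass (adjusted p = 0.214). The most abundant complex IV mRNAs per length were Cox8a, with 249 ± 41.2 FPKM in RI and 340 ± 66.2 FPKM in ICI, and Cox6a1, with 189 ± 37.2 FPKM in RI and 258 ± 45 FPKM in ICI, and neither was called (adjusted p = 0.167 and 0.153). Cox4i1, the general isoform of subunit 4, averaged 143 ± 32.8 FPKM in RI and 179 ± 13.8 FPKM in ICI (adjusted p = 0.245). Cox7a2l, which joins complexes III and IV into supercomplexes, averaged 108 ± 21.3 FPKM in RI and 106 ± 20.1 FPKM in ICI and its difference was 0.02 (adjusted p = 0.955).

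**Figure D3:**
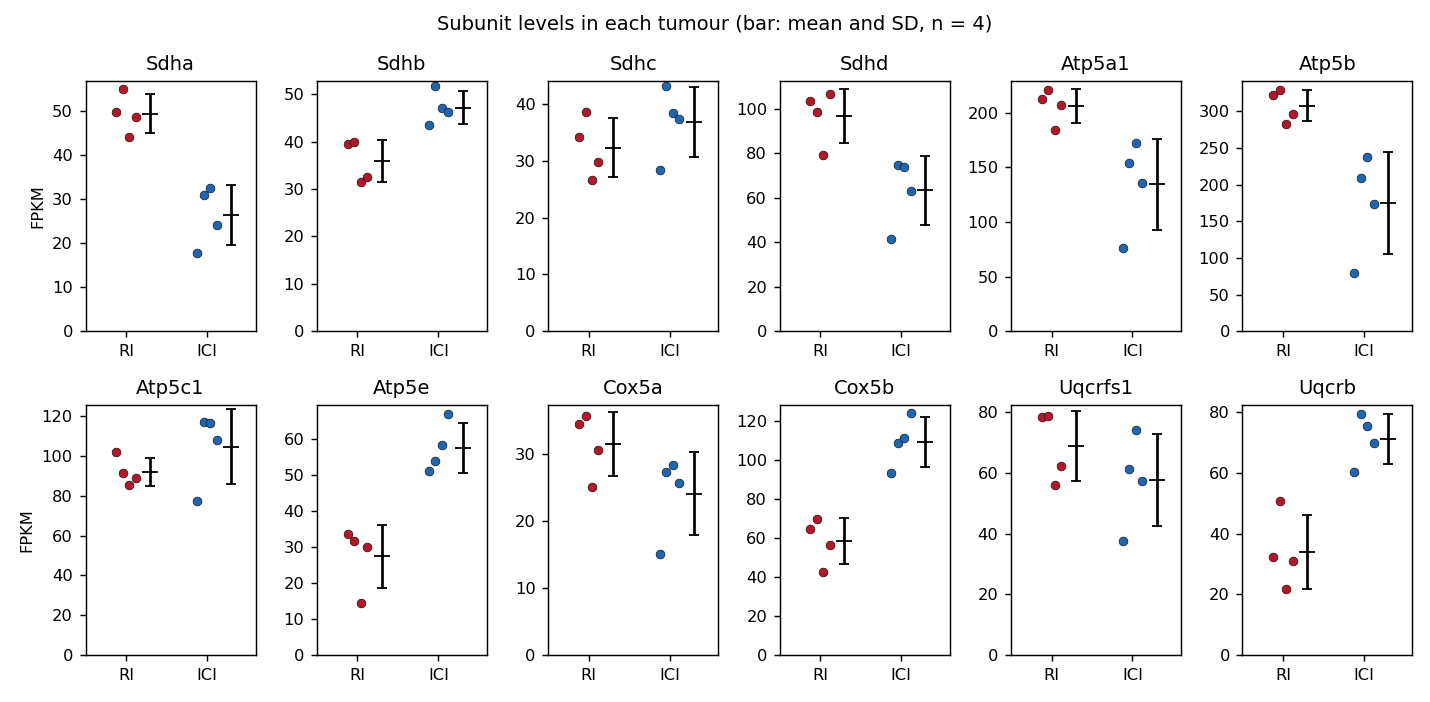
FPKM of 12 subunits in the RI and ICI tumours, 1 point per tumour, with bars for the mean and SD (n = 4 each). Sdha, Sdhd, Atp5a1 and Atp5b lie higher in RI without overlap, Atp5e, Cox5b and Uqcrb lie lower without overlap, Sdhb lies lower by less, and Sdhc, Atp5c1, Cox5a and Uqcrfs1 overlap.

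Tissue-restricted isoforms of complex IV were low, and none was called. Cox4i2, an isoform known from lung and perivascular cells, had 2.16, 2.13, 1.67 and 0.893 FPKM in RI, against 21.4, 2.99, 1.97 and 3.97 FPKM in ICI. ICI 1 was far above the rest, and without it and RI 4 the log2 difference was −0.55 in place of −1.18. Cox6a2, the heart and muscle isoform of subunit 6a, had 3.48, 8.55, 8.17 and 3.66 FPKM in RI, against 13.8, 2.44, 8.93 and 0.795 FPKM in ICI, with values scattered in both groups. Cox8b, another muscle isoform, had 2.57, 9.24, 0.993 and 0.261 FPKM in RI, against 2.28, 1.52, 2.27 and 0 FPKM in ICI, and Cox7a1 had 1.52, 3.89, 0.308 and 2.46 FPKM in RI, against 2.1, 2.27, 4.28 and 4.7 FPKM in ICI. Ndufa4l2, a hypoxia-inducible relative of Ndufa4, had 2.6, 5.42, 2.06 and 2.94 FPKM in RI, against 5.93, 2.36, 2.11 and 1.93 FPKM in ICI. The balance between a restricted isoform and its general partner was taken within each tumour as the difference of their log2(FPKM + 1). In exact permutation tests (two-sided, 70 regroupings, adjusted over 5 pairs) RI minus ICI was −0.82 for Cox4i2 over Cox4i1, 0.71 for Cox6a2 over Cox6a1 and 0.88 for Cox8b over Cox8a (adjusted p = 0.643 each). It was −0.26 for Cox7a1 over Cox7a2 (exact permutation test, adjusted p = 0.643) and 0.02 for Ndufa4l2 over Ndufa4 (exact permutation test, adjusted p = 1). Skeletal muscle markers varied widely beside these isoforms. Of 14 markers 12 were tested and 2 rose in RI (Ckm and Myh4), where 11.1% of all genes tested did. The 14 markers summed to 140 to 649 FPKM in RI and 16.0 to 325 FPKM in ICI, and Ckm, Mb, Myh2, Myh4, Pvalb and Tnnc2 were at 0 in at least 1 tumour. Their part in the levels of the muscle isoforms was not tested.

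**Figure D4:**
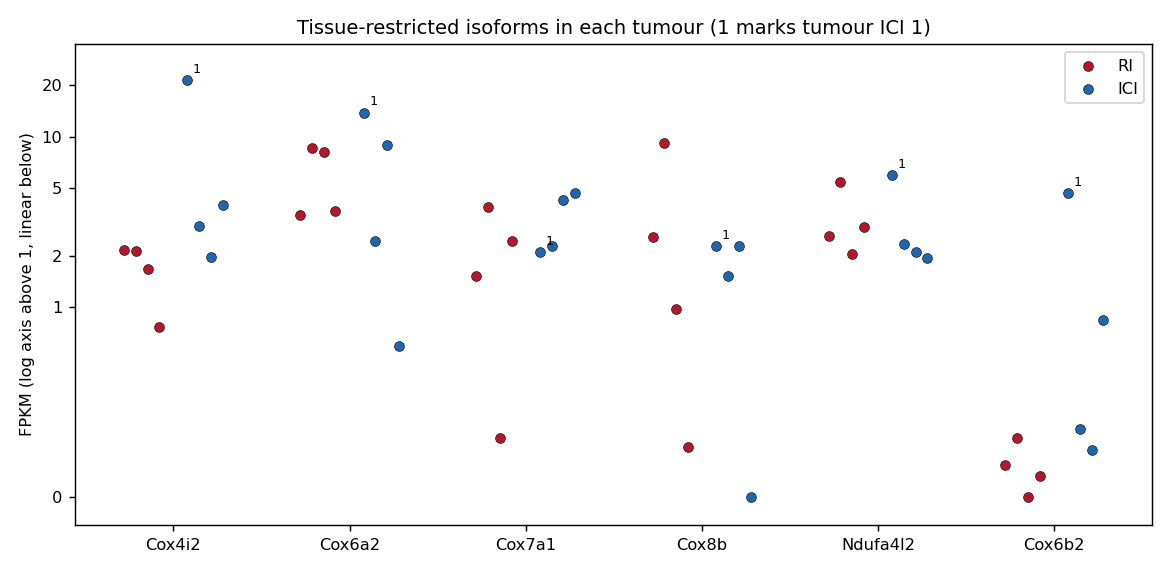
FPKM of 5 tissue-restricted isoforms and of Cox6b2 in each RI and ICI tumour (vertical axis logarithmic above 1 and linear below), with tumour ICI 1 marked by a 1. ICI 1 has the highest Cox4i2 (21.4 FPKM), Cox6a2 (13.8 FPKM), Ndufa4l2 (5.93 FPKM) and Cox6b2 (4.66 FPKM), and the other tumours of the groups overlap for the 5 tested isoforms.

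Differences within ATP synthase ranged between −1.10 for Atp5e and 0.92 for Atp5b. Atp5b, the catalytic beta subunit of the F1 head, had 322, 329, 283 and 297 FPKM in RI, against 79, 209, 238 and 174 FPKM in ICI. Atp5a1, the alpha subunit that forms the head ring with it, had 213, 221, 184 and 207 FPKM in RI, against 76.2, 154, 172 and 136 FPKM in ICI. RI lay above ICI throughout in both genes, but neither passed (adjusted p = 0.0704 for Atp5b and 0.0883 for Atp5a1). With RI 4 and ICI 1 left out both rose, by 0.62 (adjusted p = 0.0219) and 0.48 (adjusted p = 0.0294) on the log2 scale. Atp5e, the small epsilon subunit of the central stalk, had 33.6, 31.7, 14.5 and 29.9 FPKM in RI, against 51, 54, 58.2 and 66.9 FPKM in ICI. It fell by the largest amount of the complex (log2 difference −1.10, SE 0.25, adjusted p = 0.0232, and 0.0733 without ICI 4). The gamma and delta subunits of the same stalk, Atp5c1 and Atp5d, averaged 92 ± 7.2 FPKM in RI and 105 ± 18.8 FPKM in ICI and 106 ± 15.7 FPKM in RI and 124 ± 23.9 FPKM in ICI, and were not called (adjusted p = 0.523 and 0.472).

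The peripheral stalk of ATP synthase, which holds the head still, was split. Atp5h, subunit d, had 65, 59.3, 44.3 and 59.8 FPKM in RI, against 87.3, 103, 105 and 105 FPKM in ICI, and Atp5j, coupling factor 6, had 17, 18, 13.6 and 18.3 FPKM in RI, against 30.1, 27.1, 31.1 and 29.7 FPKM in ICI. Both fell without overlap of the groups, Atp5h by 0.81 (adjusted p = 0.0171) and Atp5j by 0.79 (adjusted p = 0.0134) on the log2 scale. The call of Atp5h was lost without ICI 4 (adjusted p = 0.0587) and without RI 2 (0.0508), and that of Atp5j was kept in each case. Atp5pb, subunit b, averaged 50.6 ± 6.39 FPKM in RI and 43.8 ± 9.85 FPKM in ICI and Atp5o, the subunit that confers oligomycin sensitivity, averaged 23.2 ± 2.01 FPKM in RI and 28.4 ± 3.8 FPKM in ICI, with no call for either (adjusted p = 0.444 and 0.202). Of the 5 small membrane subunits 3 fell, Atp5k (subunit e), Atp5j2 (subunit f) and Atp5md (known as DAPIT), and the median was −0.69. Atp5j2 had 21, 22.6, 14.1 and 19.6 FPKM in RI, against 27.4, 32.8, 30.9 and 35.4 FPKM in ICI (log2 difference −0.69, adjusted p = 0.0266). Atp5md had 10.5, 10.1, 5.27 and 8.12 FPKM in RI, against 13, 14.3, 14.1 and 18.9 FPKM in ICI (log2 difference −0.78, adjusted p = 0.0346). These calls were less stable, kept with 3 of 8 libraries left out for Atp5j2 and with 2 for Atp5md and Atp5k. The 3 genes of the rotating c ring did not pass the test. Atp5g2 averaged 84.2 ± 14.1 FPKM in RI and 85.5 ± 20.9 FPKM in ICI, Atp5g3 76.7 ± 16.5 FPKM in RI and 79.9 ± 15.2 FPKM in ICI and Atp5g1 9.31 ± 1.91 FPKM in RI and 13.6 ± 2.81 FPKM in ICI, with adjusted p-values of 0.9993, 0.858 and 0.0996. Atpif1, an inhibitor protein of ATP synthase that is no member, averaged 28.0 ± 5.78 FPKM in RI and 33.9 ± 6.03 FPKM in ICI (SD, n = 4 each, adjusted p = 0.346).

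Relative to a partner in the same complex, levels differed between the groups without overlap in most pairs examined, which were picked after the values had been seen and carry no test. Sdha over Sdhb was 1.26, 1.37, 1.39 and 1.49 in RI, against 0.410, 0.595, 0.692 and 0.520 in ICI. Atp5b over Atp5e was 9.60, 10.4, 19.5 and 9.91 in RI, against 1.55, 3.87, 4.09 and 2.60 in ICI. The catalytic subunit thus stood higher relative to its partner in every RI tumour. Cox5a over Cox5b was 0.512 to 0.586 in RI and 0.161 to 0.255 in ICI, and Uqcrfs1 over Uqcrb 1.55 to 2.58 in RI and 0.624 to 0.983 in ICI. A ratio within a tumour does not depend on the scale of its library, since both genes share it. A trend of the library with transcript length does not cancel, however, where the genes differ in length. Its part in these ratios was not tested. The principal transcripts measure 2900 bases for Sdha and 1142 for Sdhb, and 1916 for Atp5b and 421 for Atp5e. Within the alpha and beta pair of ATP synthase the ratio of Atp5a1 to Atp5b was 0.650 to 0.698 in RI and 0.721 to 0.965 in ICI, and for Uqcrc1 over Uqcrc2 the groups overlapped, with 1.44 to 1.90 in RI and 1.69 to 2.23 in ICI.

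Of the 90 members 6 stayed below 1 FPKM in too many tumours to enter the fit. Cox6b2, an isoform known from testis, had 0.167, 0.309, 0 and 0.106 FPKM in RI, against 4.66, 0.358, 0.246 and 0.933 FPKM in ICI, or 21 fragments in the RI group and 240 in the ICI group, of which 170 were in ICI 1. Its difference of −0.86 on the log2(FPKM + 1) scale had a two-sided p of 0.0571 by exact permutation test. Without ICI 1 the difference was −0.38. Cox6c2, annotated as a processed pseudogene in GENCODE M21, had 10 fragments in RI and 45 in ICI (difference −0.79, exact permutation test, p = 0.0286, the smallest that 4 against 4 tumours allow). Ndufa11b, likewise a processed pseudogene there, had 0 fragments in all RI tumours, against 5, 10, 7 and 6 in ICI. Cox7b2 and Cox8c, other testis isoforms, had 6 fragments in ICI 1 and 1 fragment in ICI 4, and no fragment elsewhere. Ndufb11b had 2 fragments in ICI 4 alone. A library with no fragment of a gene allows up to 3, so at this depth the last 3 genes cannot be compared between the groups.

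The difference of a member went along with the length of its transcript, as it did for genes at large. Spearman's rho of the difference with principal transcript length was 0.367 over the 84 members and 0.436 over 13330 genes, and with coding length it was 0.469 over 81 members and 0.303 over 11284 genes. Genes are no independent replicates and share the 8 libraries, so no p is given. Among transcripts under 500 bases 4 of 9 members fell (median difference −0.68), against 16.3% of 901 genes (median −0.45). From 500 to below 1000 bases 16 of 43 members fell (median −0.59), against 18.1% of 1290 genes (median −0.37). From 1000 to below 2000 bases 6 of 24 members fell (median −0.19), against 9.65% of 2860 genes (median −0.16). At 2000 bases and above 1 of 8 members fell and 1 rose, while 2.71% of 8279 genes fell and 16.1% rose. The trend had opposite signs in the groups when each tumour was set against the mean of all 8. Over 13330 genes rho was 0.224, 0.336, 0.472 and 0.274 in RI, against −0.129, −0.397, −0.353 and −0.422 in ICI, and RI 4, with the steepest trend, also had the lowest members' median deviation (−0.64). With this trend removed from each library Ndufv3 was lower (−0.82, adjusted p = 0.0274), and Sdha (0.84, adjusted p = 0.0448), Sdhd (0.85, adjusted p = 0.041) and Cox5a (0.78, adjusted p = 0.0456) were higher, with a members' median of −0.19. Its part in the members' differences beyond these values was not tested.

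**Figure D5:**
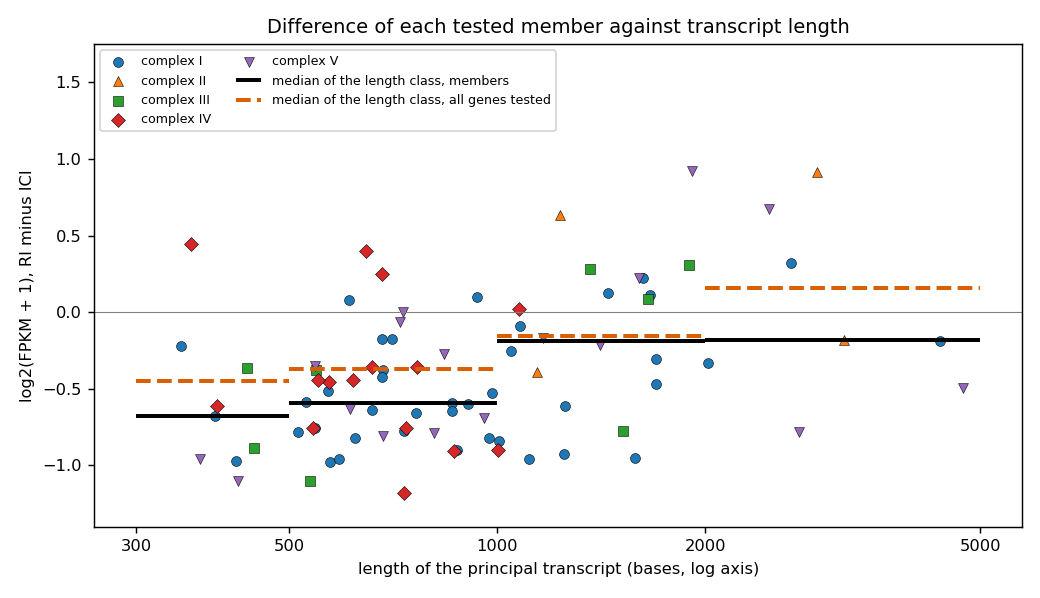
Log2 difference (RI minus ICI) of each tested member against the length of its principal transcript in bases (log axis), with symbols for the complexes, solid bars for the members' median and dashed bars for the median of all genes tested in each length class. Members' medians go from −0.68 below 500 bases to −0.18 at 2000 bases and above, and those of all genes from −0.45 to 0.16.

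Subunits encoded in the mitochondrial genome, which complete complexes I, III, IV and V, were also lower in RI. Of 13 tested 9 fell, where 6.6% of all genes tested did, none rose, all 13 differences were negative and the median was −1.13. mt-Cytb, cytochrome b of complex III, had 2798, 3003, 2204 and 2592 FPKM in RI, against 6173, 5673, 4671 and 6972 FPKM in ICI (log2 difference −1.14, adjusted p = 0.0136). mt-Atp8, a small subunit of ATP synthase, had 138, 163, 80.2 and 121 FPKM in RI, against 588, 419, 270 and 599 FPKM in ICI (log2 difference −1.87, adjusted p = 0.0129). No RI tumour reached the lowest ICI tumour for either gene. With the transcript length trend removed, 8 of the 13 were called lower, against 2.28% of all genes tested, and the median was −0.82.

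Factors that build the complexes did not move as a block. Their counts are to be read against the 11.1% of all genes tested that rose and the 6.6% that fell, and the shares higher among complex I and IV factors do not exceed the first. Among complex I assembly factors 1 of 15 tested rose (Nubpl, 2.29 FPKM in RI and 1.09 FPKM in ICI on average, adjusted p = 0.0474) and none fell (median 0.05). For complex III 2 of 8 fell, Uqcc2 and Uqcc3, with a median of −0.43. Uqcc3 had 10.4, 10.6, 6.33 and 11.3 FPKM in RI, against 18.6, 17.9, 16.6 and 21.4 FPKM in ICI (adjusted p = 0.0168). For complex IV 2 of 20 rose, Taco1, an activator of the translation of mitochondrial COX1, and Coa5, and 2 fell, among them Cox19 (median −0.12). For complex V 1 of 5 fell, Fmc1, and for complex II none of 2 passed by limma (0 at an unadjusted p under 0.05). Among 5 supercomplex factors Rab5if rose, with 12.2, 11.2, 10.01 and 16.6 FPKM in RI, against 3.12, 4.90, 4.16 and 3.82 FPKM in ICI (log2 difference 1.42, adjusted p = 0.0115), and Higd2a and Stmp1 fell. Cox7a2l, which was not called, is on this list and is also a member counted in complex IV. Of 9 subunits and electron carriers that the name rule leaves out 1 rose and none fell. That gene was Gpd2, the mitochondrial glycerol-3-phosphate dehydrogenase that feeds electrons to ubiquinone, with 15.1, 14.3, 15.1 and 14.2 FPKM in RI, against 5.44, 7.30, 9.63 and 6.09 FPKM in ICI (log2 difference 0.98, adjusted p = 0.013). Cyc1, the cytochrome c1 of complex III, averaged 44.2 FPKM in RI and 42.1 FPKM in ICI (adjusted p = 0.824).

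In the citric acid cycle 1 of 17 tested genes rose, Ogdh, a smaller share than the 11.1% of all genes tested, and none fell (median 0.14). Among 12 regulators of mitochondrial biogenesis none passed by limma (median 0.13), with 2 at an unadjusted p under 0.05. Of 14 mitochondrial import and carrier genes 2 fell, Tomm7 and Timm8b, where 6.6% of all genes tested did, and none rose (median −0.03). Ribosomal protein genes were on balance lower in RI as well. The median transcript length was 860 bases for the cytosolic and 1316 bases for the mitochondrial ones. Of 87 tested cytosolic ribosomal protein genes 31 fell and none rose, with a median of −0.61, and of 77 mitochondrial ribosomal protein genes 15 fell and none rose, with a median of −0.22. Of all genes tested 6.6% fell. With the transcript length trend removed 5 cytosolic and 3 mitochondrial ribosomal protein genes were called lower (2.28% of all genes tested were), with medians of −0.32 and −0.17. Markers of cell types differed too, and their counts are to be read against the 6.6% of all genes tested that fell and the 11.1% that rose. Neutrophil markers, 13 genes, summed to 116 to 314 FPKM in RI and 301 to 22730 FPKM in ICI, with 2 of 12 tested lower in RI and Camp and Ly6g at 0 in some tumours. Fibroblast markers, 8 genes, summed to 115 to 521 FPKM in RI and 54.1 to 77.7 FPKM in ICI, with 4 of 7 tested higher in RI. Red cell markers, 7 genes, summed to 1.74 to 103 FPKM in RI and 209 to 1064 FPKM in ICI, with 2 of 4 tested lower and the globin genes Hba-a2, Hbb-bs and Hbb-bt at 0 in some tumours. Markers of 4T1 epithelium, 11 genes, summed to 786 to 1433 FPKM in RI and 1016 to 2051 FPKM in ICI, with 1 of 6 tested lower and Epcam and Krt5 at 0 in some tumours, and proliferation genes to 373 to 406 FPKM in RI and 201 to 385 FPKM in ICI, with 2 of 8 higher. Of the markers tested, 2 of 9 for macrophages were higher and 1 lower, 1 of 4 for T cells and 2 of 9 hypoxia genes were lower, and none of 5 endothelial, 7 pericyte or 3 adipocyte markers passed by limma (1, 0 and 1 at an unadjusted p under 0.05). The pericyte list holds Cox4i2 and Ndufa4l2, which are also members, so it is not separate from the set. The part of these cell types in the differences of the respiratory subunits was not tested. Without ICI 1, the tumour with the highest sum of neutrophil markers, 35 members were called, 33 lower and 2 higher, with 20% of all genes called. The other ICI tumours had sums of 301 to 722 FPKM for these markers, against 116 to 314 FPKM in RI.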

How the data were processed

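Bulk RNA sequencing of 8 mouse 4T1 tumours (4 RI, 4 ICI, grouped by sample title) was used. The deposited values were FPKM for 32098 genes, made by the authors. The submitters' processing notes name HISAT2 and GRCm38 (mm10), without versions. Which counting program, strand setting, annotation release or gene filter they used is not given in the sources used here. Identifiers of 31407 genes were matched to GENCODE M21, which gave positions and the lengths of principal transcripts and coding sequences.

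Differences (RI minus ICI) were tested with limma 3.58.1 in R 4.3.3 (lmFit, eBayes with trend and robust variance) on log2(FPKM + 1), two-sided, for the 13439 genes that reached 1 FPKM in 4 or more tumours. Each adjusted p of a gene is Benjamini-Hochberg adjusted over these genes, and a gene was called below 0.05. On this scale the change of genes with low FPKM is understated. Isoform balances and members below the filter were compared by exact permutation over 70 regroupings, where the smallest two-sided p is 0.0286. Means and SDs are of FPKM. Fragments were recovered from the steps between low values, of which 98.6% to 98.8% came out whole within 0.05, and served for depth, for members below the filter and for a voom fit. Intervals and limits from fragments cover counting error only. Libraries of a group always differed by more than sampling noise (smallest chi-square per gene 37.6). The script was tested on simulated data.

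The members and the gene lists were chosen with earlier results of these data known. Named were, per complex, up to 5 called members with the smallest p, the 2 with the highest mean and those with the largest and smallest difference, core subunits and isoforms by name, and from other lists up to 3 called genes and the highest. Further subunits were named after their values were seen, to complete the groups, and values of 1 member are not reported here. The alternatives were other pseudocounts (0.1 and 5), filters and scalings, TPM, array weights, length and GC corrections, voom, a replicate block and libraries left out. Promoter windows are from RefSeq.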

Additional observations from a re-analysis of the deposited data

Results flagged for a closer look

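In 8 of the 94 groups of 4 tumours examined (47 named members in each treatment), 1 tumour lay far from the other 3 of its group. For independent, normally distributed values such a flag arises in about 1 in 20 groups. These groups share the same 8 libraries, so the count cannot be set against that rate. Where the other 3 tumours are at 0, as for Cox7b2 and Cox8c, any fragment gives a flag. All 8 flags fell in the ICI group, and 7 of them on ICI 1, the tumour with the high neutrophil and endothelial markers. In ICI 1 Cox4i2 had 21.4 FPKM against 1.97 to 3.97 FPKM in the other ICI tumours, Ndufa4l2 had 5.93 FPKM against 1.93 to 2.36, Cox6b2 had 4.66 FPKM against 0.246 to 0.933, and Cox7b2 had 0.336 FPKM (6 fragments) against 0. The same tumour was low for Atp5h, with 87.3 FPKM against 103 to 105, for Cox7a2l, with 76.3 FPKM against 115 to 119, and for Uqcrc1, with 48.0 FPKM against 71.8 to 74.4. In ICI 4 Cox8c had 0.0513 FPKM, a single fragment, against 0 in the others. Without ICI 1 and RI 4 the log2 difference of Cox4i2 was −0.55 in place of −1.18, that of Atp5h was −0.76 in place of −0.81, and Uqcrc1 and Cox7a2l had 0.03 and 0.01.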

How the results depend on the processing

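Beside the 28 members and 2373 genes called, 45 members and 4319 genes were called with array weights, 17 and 1298 with the length and GC correction, 13 and 1276 with the length correction alone, 4 and 746 with the transcript length correction (chosen after seeing the data), 2 and 241 without the filter, and 0 and 280 with TPM. Array weights added calls in both directions (40 members lower and 5 higher). Rescaling without mitochondrial and rRNA-like genes called 31 members (20 lower, 11 higher) and 4967 genes. It moved the median of all genes to 0.29 and TPM moved it to 0.11, and relative to these shifts the members' medians were −0.40 and −0.47. Of all called genes 62.6% were higher in RI, against 48.0% of 3123 after median centring, 90.01% after this rescaling and 78.8% without the filter. With single libraries left out, 2 to 35 members and 336 to 2693 genes were called, the fewest without ICI 4, and leaving out ICI 1 and RI 4 together gave 39 and 3103. The replicate number as a block gave 0 members by limma (31 at an unadjusted p under 0.05) and 22 genes, and the block with the length and GC correction gave 2 and 485. Same-numbered tumours did not deviate together (correlations −0.0923, −0.12 and −0.124), so the numbers are not taken as a pairing. Medians by complex moved beyond the spread with the rescaling, to −0.26 for complex I, 0.55 for II, −0.0415 for III and −0.11 for IV, with the length correction, to −0.0681 for III and −0.12 for IV, and with the transcript length correction, to −0.28 for I, 0.0496 for III and −0.0542 for IV. Cox6c2 lost its p of 0.0286 with TPM (−1.09), the length and GC correction (−0.40), the length correction (−0.35) and the transcript length correction (−0.33), and Cox6b2 was −0.91 after median centring (exact permutation p = 0.0286) and −2.11 with a pseudocount of 0.1. Members below the filter were not run with quantile normalization, and the causes of these shifts were not tested. Recovered fragments limit the 6 lowest members, whose counts run from 0 to 170 per tumour. No result named here changed sign with a call in both settings.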
